A study of Mus musculus with 7 samples.

Results

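The 9 genes described here encode surface proteins that T cells use to adhere, to leave lymphoid tissue and to mark their state of differentiation. They are 4 genes of the LY6 family (Ly6a, Ly6c1, Ly6c2 and Ly6e), the receptor gene Klrg1, the adhesion genes Cd44 and Selplg, and the sphingosine-1-phosphate receptor genes S1pr1 and S1pr4. They were taken by symbol as surface markers of central and effector regulatory T cells (Tregs) and of egress. All 9 were found among the 51138 genes of the count table, and all 9 passed the filter on low counts that kept 15954 genes. RNA was sequenced from Tregs sorted out of the spleens of C57/BL6 mice of an RFP-FoxP3+ line, in which a red fluorescent protein reports Foxp3. Mice received either 20 ug of FP, a fusion protein of interleukin-2 and its receptor chain CD25, or 100 uL of PBS, and Tregs were sorted 72 h later. There were 4 FP and 3 PBS libraries. The labels do not say that each library came from its own mouse, and p values here reflect only how these libraries vary, which may be technical.

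LY6 proteins are small domains held on the outer face of the cell membrane by a glycolipid (GPI) anchor, and the genes for LY6A (Sca-1), LY6C and LY6E are known to respond to interferons. CD44 binds hyaluronan. PSGL-1, the product of Selplg, binds selectins once sugars and sulfate have been added to it. KLRG1 is an inhibitory lectin-like receptor that binds cadherins and marks effector Tregs. S1PR1 senses sphingosine-1-phosphate (S1P) in blood and lymph and draws T cells out of lymphoid organs, while S1PR4 is a relative found mainly on leukocytes.

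Total counts ran from 9956509 to 13429878 per library. Levels are given as CPM, the usual depth-scaled counts, with library sizes adjusted by trimmed mean of M values (TMM) factors. Of 8 Treg markers, all of which were tested, 5 rose after FP, 3 missed the threshold, and the median log2 fold change was 0.54. The share that rose was 62.5%, beside 21.0% of all tested genes. Such differences between the groups do not by themselves show that the cells were Tregs. Il2ra, the gene for CD25, rose by 1.69 on the log2 scale, Tnfrsf18 by 1.07, Ctla4 by 0.97, Ikzf2 by 0.54 and Trac by 0.53. Cd4, Cd3e and Foxp3 were the others. Foxp3, the lineage factor of Tregs, stood at 540 ± 52.9 CPM in the FP libraries (SD, n = 4) and at 491 ± 7.24 CPM in the PBS libraries (SD, n = 3) (edgeR adjusted p = 0.292). Markers of monocytes and macrophages differed between the groups: their summed level was 78.3 to 214 CPM in the FP libraries and 480 to 1110 CPM in the PBS libraries, and 10 of 11 tested were lower after FP. None of these 12 markers was at 0 in all libraries. In bulk samples, fewer cells of a type and less RNA per cell cannot be told apart.

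Of the 9 genes, 6 rose after FP (Ly6c2, Ly6a, Klrg1, Selplg, S1pr4 and Ly6e), 1 fell (Cd44), and 2 did not pass the test (Ly6c1 and S1pr1). The increases ran from 1.46-fold for Ly6e to 5.37-fold for Ly6c2. Each gene was read from the edgeR quasi-likelihood test of FP against PBS over all 15954 genes, with a threshold of 0.05 on the Benjamini-Hochberg adjusted p. In that test 39.5% of all genes were called, 21.0% as higher and 18.5% as lower. A rise of at least 2-fold that passed the test was seen for 3 of the 9 genes (Ly6a, Ly6c2 and Klrg1) and for 7.58% of all genes. The libraries of the 2 groups did not overlap for 7 of the 9 genes, 6 with every FP library above every PBS library and 1 with every FP library below. Over all genes tested, the groups did not overlap for 46.7%, and 23.2% lay entirely above and 23.5% entirely below. The split of calls depended on scaling: with TMM factors 3355 genes were higher and 2953 lower, with upper-quartile factors 2399 and 4823, and with library size alone 2023 and 5046. The median gene lay at a log2 fold change of -0.05 with TMM factors and at -0.25 and -0.31 with those scalings. With upper-quartile factors 6 of the 9 genes rose and 1 fell, and with library size alone 5 rose and 1 fell.

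**Figure D1:**
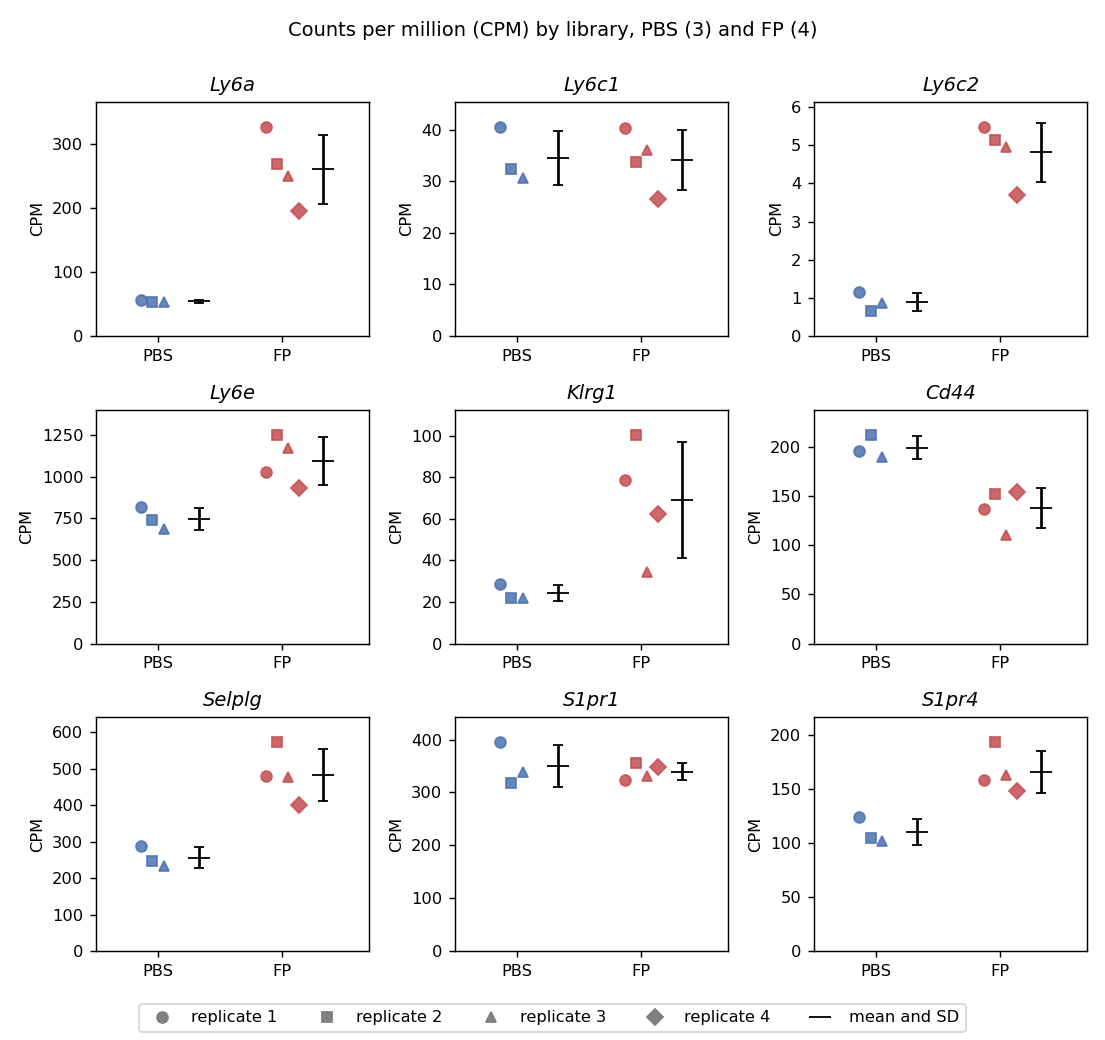
Level of each of the 9 genes in CPM (vertical axis, from 0) in the PBS and FP libraries, with 1 point per library, a symbol for each replicate number and the mean and SD of each group in black. For Ly6a the FP libraries sit between 195.5 and 327 CPM and the PBS libraries between 52.9 and 56.4 CPM, whereas for Ly6c1 and S1pr1 the groups overlap.

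The 4 LY6 genes lie together on chromosome 15 of GRCm38, within 156.9 kb from 74955051 to 75111970. Ly6e is on the plus strand and the other 3 are on the minus strand. Ly6a had the smallest p of the 4. Ly6a (ENSMUSG00000075602.10, 74994877 to 74998031), the gene for Sca-1, measured 327, 269, 251 and 195.5 CPM in FP replicates 1 to 4 and 56.4, 53.1 and 52.9 CPM in PBS replicates 1 to 3. Every FP library was above every PBS library, and the PBS libraries were close together. The means were 261 ± 54.3 CPM (SD, n = 4) and 54.1 ± 1.93 CPM (SD, n = 3). The log2 fold change was 2.27 (SE 0.16, 95% interval 1.91 to 2.62, edgeR adjusted p = 5.88e-06), a 4.81-fold rise. By p value Ly6a was number 125 of the 15954 genes.

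Ly6c1 and Ly6c2 both encode LY6C, the antigen that also marks inflammatory monocytes, and their sequences are shown because reads must be told apart between them. The most common annotated coding sequence of each has 396 bases, of which 387 are identical (97.7%). The first 90 coding bases hold 6 of the differences, which are in capitals.
Ly6c1: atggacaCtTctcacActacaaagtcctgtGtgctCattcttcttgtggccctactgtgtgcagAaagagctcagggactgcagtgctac
Ly6c2: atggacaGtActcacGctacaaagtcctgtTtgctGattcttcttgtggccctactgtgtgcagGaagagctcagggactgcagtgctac
Between Ly6a and Ly6c2 the coding identity was 82.0%, and between Ly6e and the other 3 it was 49.3% to 51.7%. Of all windows of 75 bases in the annotated transcripts of Ly6c1, 19.0% occur exactly in another gene, 259 windows in Ly6c2 and 77 in Ly6a. The share was 9.46% for Ly6c2, all of it with Ly6c1, and 6.33% for Ly6a. Ly6e had no such window. The sources used here do not say how reads that fit several genes were treated, so counts of Ly6a, Ly6c1 and Ly6c2 are uncertain.

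Ly6c1 (ENSMUSG00000079018.10, chromosome 15, 75044018 to 75048830) did not differ between the groups by the test. It measured 40.4, 33.6, 36.0 and 26.5 CPM in FP replicates 1 to 4 and 40.5, 32.5 and 30.7 CPM in PBS replicates 1 to 3. The groups overlapped over most of their range. The log2 fold change was -0.02 (SE 0.16, 95% interval -0.37 to 0.33, edgeR adjusted p = 0.929). Its sign turned to 0.13 without PBS replicate 1 and 0.08 without FP replicate 4.

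Ly6c2 (ENSMUSG00000022584.14, chromosome 15, 75108158 to 75111970) rose from a very low level. It had 51, 58, 54 and 52 counts in FP replicates 1 to 4 and 13, 9 and 10 counts in PBS replicates 1 to 3. As CPM these were 5.48, 5.15, 4.94 and 3.71 after FP and 1.15, 0.660 and 0.876 after PBS, with no overlap. On the log2 scale the change was 2.42 (SE 0.29, 95% interval 1.79 to 3.06, edgeR adjusted p = 0.000163). From the summed counts, 215 and 32, the scaled ratio was 5.37 with an exact 95% counting interval of 3.69 to 8.05. Such intervals allow for counting error and nothing else, because reads that carry no molecular identifier are not independent molecules. Of the 11 tested markers of monocytes and macrophages, 10 were lower after FP, among them the macrophage genes Vcam1, Spic, Adgre1 and C1qa. Ccr2, a chemokine receptor gene of inflammatory monocytes that T cells also express, rose by 2.05 on the log2 scale, with FP libraries at 59.9 to 142 CPM and PBS libraries at 17.6 to 36.7 CPM. The part of monocytes in the rise of Ly6c2 was not tested.

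Within a library, Ly6c2 took 11.9%, 13.3%, 12.1% and 12.3% of the joint counts of Ly6c1 and Ly6c2 in FP replicates 1 to 4. In PBS replicates 1 to 3 it took 2.75%, 1.99% and 2.78%. The exact (Clopper-Pearson) 95% intervals reached at most 5.05% in a PBS library and at least 9.02% in an FP library. The difference of the means, 12.4 ± 0.603% (SD, n = 4) against 2.51 ± 0.447% (SD, n = 3), was 9.88 percentage points, with a two-sided exact permutation p = 0.0286, the smallest that 35 assignments of the libraries can give. Adjusted over the 2 such shares tested, it was also 0.0286.

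Against Ly6a, the share did not separate the groups, a ratio that was chosen after the values were seen. For every 100 Ly6a counts there were 1.68, 1.92, 1.97 and 1.90 Ly6c2 counts in FP replicates 1 to 4, and 2.04, 1.24 and 1.66 in PBS replicates 1 to 3. The longest exact run shared by transcripts of these 2 genes has 52 bases, compared with 188 bases for Ly6c1 and Ly6c2 and 118 bases for Ly6a and Ly6c1. Whether reads of Ly6a were counted as Ly6c2 was not tested.

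**Figure D2:**
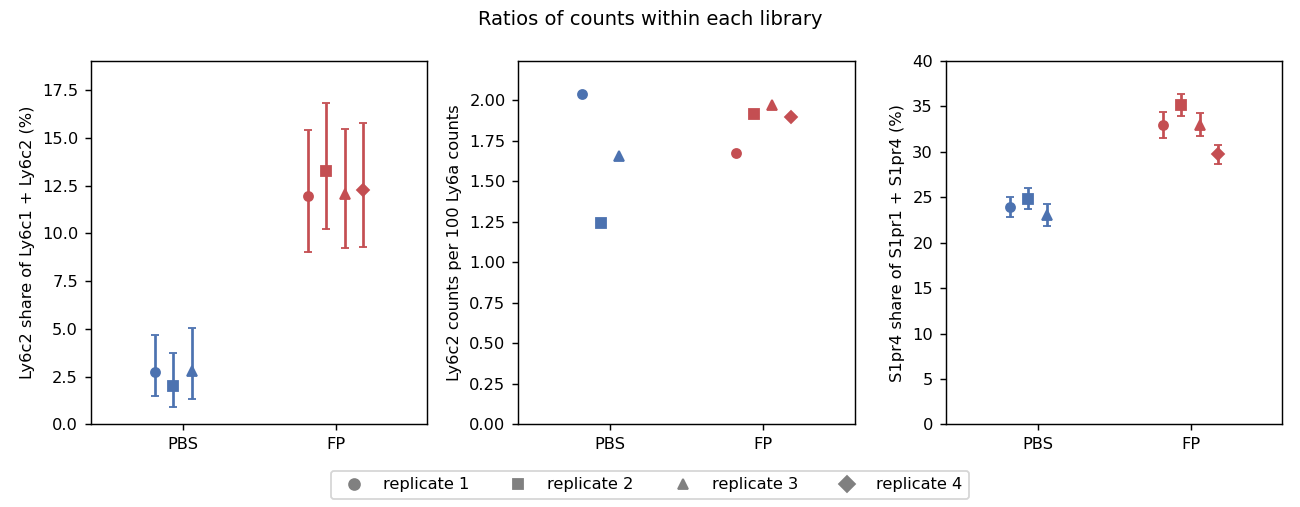
Ratios of counts within each library, PBS and FP on the horizontal axis and a symbol for each replicate number: Ly6c2 as a percent of Ly6c1 plus Ly6c2 (left), Ly6c2 counts per 100 Ly6a counts (middle) and S1pr4 as a percent of S1pr1 plus S1pr4 (right). Bars in the left and right panels are exact 95% counting intervals. The groups are apart on the left and right, while in the middle the FP libraries (1.68 to 1.97) lie within the range of the PBS libraries (1.24 to 2.04).

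The bases before the start sites of Ly6c1 and Ly6c2 are shown because these neighbours differed in their response. They are the best local alignment of the bases before each RefSeq start site (GRCm38.p6, minus strand), at chr15:75048839-75049056 for Ly6c1 and chr15:75111998-75112221 for Ly6c2. Of 234 aligned positions 169 are identical (72.2%), and capitals mark bases that differ from the other gene or are missing there.
Ly6c1: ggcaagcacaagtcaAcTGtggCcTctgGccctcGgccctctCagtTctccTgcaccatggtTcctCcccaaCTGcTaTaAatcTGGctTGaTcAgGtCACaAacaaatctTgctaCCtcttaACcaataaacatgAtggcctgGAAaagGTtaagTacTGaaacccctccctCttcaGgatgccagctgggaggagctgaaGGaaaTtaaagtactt
Ly6c2: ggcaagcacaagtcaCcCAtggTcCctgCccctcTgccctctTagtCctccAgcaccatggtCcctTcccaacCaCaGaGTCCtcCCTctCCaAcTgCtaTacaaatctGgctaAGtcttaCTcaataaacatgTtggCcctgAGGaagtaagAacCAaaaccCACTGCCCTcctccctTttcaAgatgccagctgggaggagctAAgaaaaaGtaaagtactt
RefSeq promoter windows around the start site were matched for 4 of the 9 genes (Ly6c1, Ly6c2, Cd44 and S1pr4). They were searched on both strands for TTCNNNGAA, the form of site that STAT5 binds, and for the core of the interferon-stimulated response element, GAAA and GAAA with NN between them. Neither occurs in any of the 4 windows. These are short, such as chr15:75048788-75049087 for Ly6c1 and chr15:75111922-75112221 for Ly6c2, and bases outside them were not searched. Ly6c1 and Ly6c2 have 2 RefSeq entries each, and only the entry nearest the annotated gene start was searched. Of all 32851 promoter windows, 8.30% hold the first and 3.44% the second.

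Ly6e (ENSMUSG00000022587.14, chromosome 15, 74955051 to 74959905), which encodes an interferon-induced LY6 protein, was the most abundant of the 9 and rose least. It measured 1027, 1252, 1169 and 933 CPM in FP replicates 1 to 4 and 819.5, 738 and 689 CPM in PBS replicates 1 to 3. The groups were apart, but FP replicate 4 lay closer to PBS replicate 1 than to FP replicate 2. The fitted change in log2 units was 0.55 (SE 0.12, 95% interval 0.28 to 0.82, edgeR adjusted p = 0.00554). With library size alone it was 0.28 and did not pass (edgeR adjusted p = 0.0839).

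The rest of the LY6 locus was close to silent. In a window reaching 50 kb beyond the 4 genes on each side the table holds 11 other genes, of which 4 were tested. The one that passed, chosen after its value was seen, was the long noncoding RNA gene Gm28068 between Ly6a and Ly6c1, which fell by 2.08 on the log2 scale (edgeR adjusted p = 0.00329). Its PBS mean was 2.88 ± 1.082 CPM (SD, n = 3) and its FP mean 0.639 ± 0.359 CPM (SD, n = 4). Ly6i, beside Ly6a, did not pass (edgeR adjusted p = 0.0514), with an FP mean of 1.45 ± 0.495 CPM (SD, n = 4) and a PBS mean of 2.71 ± 0.568 CPM (SD, n = 3). The neutrophil gene Ly6g had 13 counts in all 7 libraries together.

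Among other genes of the LY6 domain family, 0 of 9 tested rose and 3 fell, with a median log2 fold change of -0.87 beside -0.05 for all genes. As shares, 0% were higher and 33.3% lower, beside 21.0% and 18.5% of all tested genes, and 9 genes are too few to set these apart. Those that fell were Lypd6b (-2.81), Slurp1 (-1.09) and 2010109I03Rik (-1.28), each with a mean under 5 CPM in both groups. Of the 35 family genes found, 26 were too low to be tested. The count of 0 that rose in edgeR was also 0 at an unadjusted p under 0.05, and 0 in DESeq2 and in limma-voom.

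The genes that make and attach the GPI anchor did not move one way: 5 of 27 rose, 5 fell and 17 missed the threshold (median -0.02). These shares, 18.5% higher and 18.5% lower, were near those of all tested genes, 21.0% and 18.5%. Pgap1, an enzyme that remodels the anchor after attachment, fell by 1.42 on the log2 scale (edgeR adjusted p = 5.31e-05), with a PBS mean of 57.9 ± 1.23 CPM (SD, n = 3) and an FP mean of 21.6 ± 4.14 CPM (SD, n = 4). Pigb also fell (-0.57), whereas Pigx (0.60) and Dpm3 (0.98) rose. These counts rested on single libraries: the number that rose was 3 without FP replicate 2 or PBS replicate 3, 9 without FP replicate 4 and 1 without PBS replicate 2. Leaving out PBS replicate 1 left 3 that fell, and leaving out PBS replicate 2 or 3 left 2. With upper-quartile factors 2 rose and 9 fell.

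Interferon-response genes other than the LY6 members rose almost throughout, 24 of 25, with a median log2 fold change of 1.32 beside -0.05 for all genes. The share that rose was 96.0%, beside 21.0% of all tested genes. The list was chosen with earlier results of these data known. Oas3, a sensor of double-stranded RNA, rose by 2.51 on the log2 scale, Gbp2, a GTPase, by 2.18, Rtp4 by 1.51 and the nucleic acid sensor gene Zbp1 by 1.43. Ifi44, chosen after its value was seen, did not pass (0.52, edgeR adjusted p = 0.326). With library size alone 15 of the 25 rose. Ly6a and Ly6c2 had log2 fold changes within the range of this list, Ly6e had one below its median, and Ly6c1 lay below all that rose.

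Klrg1 (ENSMUSG00000030114.8, chromosome 6, 122270596 to 122282882, minus strand) rose 2.84-fold and varied more among the FP libraries than any other of the 9 genes. It measured 78.9, 100.5, 34.5 and 62.3 CPM in FP replicates 1 to 4 and 28.6, 22.1 and 22.1 CPM in PBS replicates 1 to 3. FP replicate 3 stood just above PBS replicate 1, while FP replicate 2 was 2.91 times FP replicate 3. The coefficient of variation was 40.3% over the FP libraries and 15.5% over the PBS libraries. On the log2 scale the change was 1.51 (SE 0.33, 95% interval 0.74 to 2.27, edgeR adjusted p = 0.00833), and it ran from 1.27 to 1.73 as each library was left out.

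NK cells also express Klrg1, so 6 markers of theirs are given beside it. Klra4 and Klra8 were at 0 in all 7 libraries, and Ncr1 was at 0 in all PBS libraries and at most 0.215 CPM after FP. Klrb1c was too low to be tested, with an FP mean of 0.237 ± 0.124 CPM (SD, n = 4) and a PBS mean of 1.27 ± 0.511 CPM (SD, n = 3). Eomes (-2.12) and Tyrobp (-2.71) were tested and fell. The sum of the 6, 2.84 to 5.77 CPM in the FP libraries and 14.4 to 29.0 CPM in the PBS libraries, was mostly Tyrobp, which myeloid cells also express. Tyrobp measured 8.92, 25.0 and 16.6 CPM in PBS replicates 1 to 3, in the order of the summed monocyte and macrophage markers. The part of NK cells in the Klrg1 values was not tested.

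Most other killer lectin-like receptor genes were too low to test: of 22 receptor genes found, 20 were not tested and 6 of those had no count in any library. Of the 2 tested, 0 passed in edgeR, DESeq2 or limma-voom, and 1 (Klrb1f) was higher at an unadjusted edgeR p under 0.05. Klrb1f had a log2 fold change of 0.80 (edgeR adjusted p = 0.0504) and Klrg2 one of 0.48 (edgeR adjusted p = 0.182), both named after their values were seen. The same list held 5 genes for cadherins, the ligands of KLRG1, and for its signalling partners, of which 2 were tested and 1 rose. The one that rose was Inpp5d, a phosphatase gene that acts downstream of KLRG1 (0.25, edgeR adjusted p = 0.0363). It did not pass without FP replicate 2 or 3 or any single PBS library (edgeR adjusted p = 0.0637 to 0.126), nor with upper-quartile factors (0.05) or library size alone (-0.01). Klra2, a gene of the same family outside the list and chosen after its value was seen, fell by 3.28 on the log2 scale (edgeR adjusted p = 0.00197).

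Cd44 (ENSMUSG00000005087.17, chromosome 2, 102811141 to 102901665, minus strand), the hyaluronan receptor gene, was the only one of the 9 to fall. It measured 137, 152, 110 and 154 CPM in FP replicates 1 to 4 and 196, 212 and 189 CPM in PBS replicates 1 to 3. Every FP library was below every PBS library, with FP replicate 3 the lowest. The means were 138 ± 20.3 CPM (SD, n = 4) and 199 ± 11.9 CPM (SD, n = 3), a ratio of 0.694. The log2 fold change was -0.53 (SE 0.12, 95% interval -0.79 to -0.26, edgeR adjusted p = 0.00582). Macrophages also express Cd44, and their summed markers, lower after FP, were 480, 1110 and 799 CPM in PBS replicates 1 to 3; their part in the fall was not tested. Among the PBS libraries, replicate 2 was the highest for both Cd44 and the marker sum. The lowest was replicate 3 for Cd44 and replicate 1 for the marker sum.

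Of 16 tested genes for hyaluronan and for proteins that bind, cut or anchor CD44, 6 rose and 3 fell, 7 missed the threshold, and the median log2 fold change was 0.03. As shares, 37.5% were higher and 18.8% lower, beside 21.0% and 18.5% of all tested genes. Hmmr, a hyaluronan-binding protein of the mitotic spindle, rose by 5.75 on the log2 scale, to an FP mean of 55.1 ± 16.6 CPM (SD, n = 4) against 0.983 ± 0.551 CPM in PBS (SD, n = 3). Srgn, whose proteoglycan serglycin is a CD44 ligand, rose by 1.35. The genes of the linkers between CD44 and actin, Msn (0.63), Ezr (0.56) and Rdx (0.40), and the sheddase gene Adam10 (0.26) made up the rest that rose, named after their values were seen. Has3, a hyaluronan synthase gene, fell by 0.93, and Stab2, a scavenger receptor for hyaluronan, by 3.75. Stab2 measured 14.0, 44.8 and 34.5 CPM in PBS replicates 1 to 3, in the same order as the summed markers of monocytes and macrophages, and 1.43 to 3.55 CPM after FP; the part of such cells in its fall was not tested. With library size alone 3 rose and 5 fell, and with upper-quartile factors 6 fell.

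Selplg (ENSMUSG00000048163.13, chromosome 5, 113818536 to 113832644, minus strand), the gene for PSGL-1, rose 1.88-fold. It measured 479.5, 573, 478 and 399.8 CPM in FP replicates 1 to 4 and 289, 248 and 233 CPM in PBS replicates 1 to 3. The groups were apart by more than the whole range of the PBS libraries. The fitted change in log2 units was 0.91 (SE 0.13, 95% interval 0.62 to 1.20, edgeR adjusted p = 0.000485).

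Of 15 tested genes that build selectin-binding sugars and sulfate, 5 rose and 3 fell, 7 missed the threshold, and the median log2 fold change was 0.24. The shares were 33.3% higher and 20.0% lower, beside 21.0% and 18.5% of all tested genes. Fut7, the fucosyltransferase that completes the sialyl Lewis x group, measured 9.35, 11.99, 9.71 and 8.63 CPM in FP replicates 1 to 4 and 3.09, 2.57 and 1.75 CPM in PBS replicates 1 to 3. The FP libraries all lay above the PBS libraries, and the log2 fold change was 2.00 (edgeR adjusted p = 0.000156). The sialyltransferase gene St3gal4 (0.74), the tyrosine sulfotransferase gene Tpst2 (0.66) and the GDP-fucose transporter gene Slc35c1 (0.52) also rose. The others that passed, named after their values were seen, were Gcnt1, the core 2 branching enzyme (0.60), which rose with overlapping libraries, and St3gal1 (-0.43), St3gal6 (-0.75) and Chst2 (-0.64), which fell. Leaving out PBS replicate 1 left 1 that fell, and scaling by library size alone left 3 that rose.

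S1pr1 (ENSMUSG00000045092.8, chromosome 3, 115710433 to 115715072, minus strand), the egress receptor gene, did not pass the test. It measured 323, 356, 330.5 and 349 CPM in FP replicates 1 to 4 and 395, 318 and 339 CPM in PBS replicates 1 to 3. The FP libraries lay wholly within the range of the PBS libraries. On the log2 scale the change was -0.05 (SE 0.10, 95% interval -0.26 to 0.17, edgeR adjusted p = 0.735). Without PBS replicate 1 it was 0.07.

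S1pr4 (ENSMUSG00000044199.6, chromosome 10, 81497747 to 81500132, minus strand) rose 1.50-fold. It measured 158.5, 193, 163 and 148 CPM in FP replicates 1 to 4 and 124, 105 and 101.5 CPM in PBS replicates 1 to 3. The groups did not overlap. The log2 fold change was 0.59 (SE 0.11, 95% interval 0.33 to 0.84, edgeR adjusted p = 0.00263). Within a library, S1pr4 took 32.9%, 35.1%, 32.98% and 29.7% of the joint counts of S1pr1 and S1pr4 in FP replicates 1 to 4, and 23.9%, 24.9% and 23.0% in PBS replicates 1 to 3. The means, 32.7 ± 2.23% (SD, n = 4) and 23.9 ± 0.914% (SD, n = 3), differed by 8.76 percentage points (two-sided exact permutation p = 0.0286, the smallest possible, and 0.0286 adjusted over the 2 shares).

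The list of other genes that make, break down, carry or relay S1P also holds regulators of S1pr1, among them Cd69 and Klf2, given below. Of its 19 tested genes, 3 rose and 7 fell, 9 missed the threshold, and the median log2 fold change was -0.20. In percent, 15.8% were higher and 36.8% lower, beside 21.0% and 18.5% of all tested genes. Gnai2, the inhibitory G protein subunit through which S1PR1 signals, rose by 0.95, while Gna12, another G protein subunit, fell by 0.78 and Arrb1, an arrestin that takes receptors off the surface, fell by 0.66. Plpp3, a phosphatase that degrades S1P outside cells, fell by 4.61. It measured 4.86, 13.6 and 9.81 CPM in PBS replicates 1 to 3, again in the order of the summed monocyte and macrophage markers, and at most 0.888 CPM after FP; the part of such cells was not tested. The number that rose was 1 without PBS replicate 3 and 1 with upper-quartile factors or library size alone.

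Cd69, whose protein pulls S1PR1 off the cell surface, varied widely after FP. It measured 515, 358, 138 and 153 CPM in FP replicates 1 to 4 and 195, 110 and 133 CPM in PBS replicates 1 to 3. FP replicates 1 and 2 were high, whereas FP replicates 3 and 4 lay within the range of the PBS libraries, and the test was not passed (log2 fold change 0.99, edgeR adjusted p = 0.157). Klf2, which drives S1pr1, had an FP mean of 302 ± 29.1 CPM (SD, n = 4) and a PBS mean of 258 ± 28.2 CPM (SD, n = 3), with overlapping libraries (0.23, edgeR adjusted p = 0.115).

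**Figure D3:**
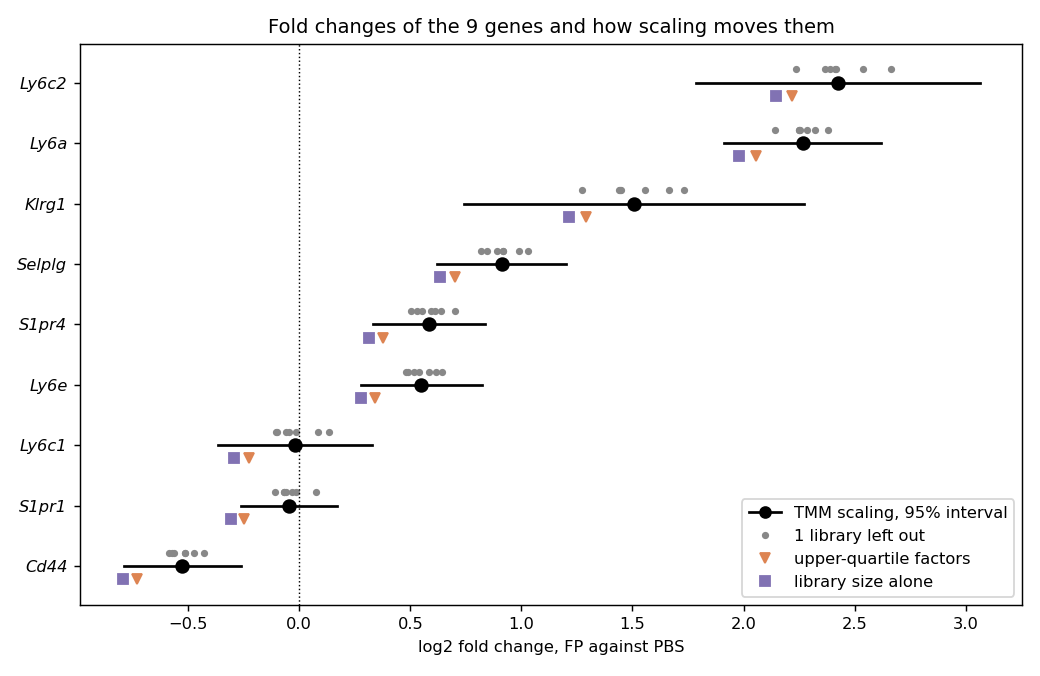
Log2 fold change of FP against PBS (horizontal axis, dotted line at 0) for the 9 genes: black points with 95% intervals from the edgeR fit with TMM scaling, grey points with 1 library left out, triangles with upper-quartile factors and squares with library size alone. The intervals of Ly6c1 (-0.37 to 0.33) and S1pr1 (-0.26 to 0.17) span 0, that of Cd44 lies below it, and both other scalings lie to the left for each gene.

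**Figure D4:**
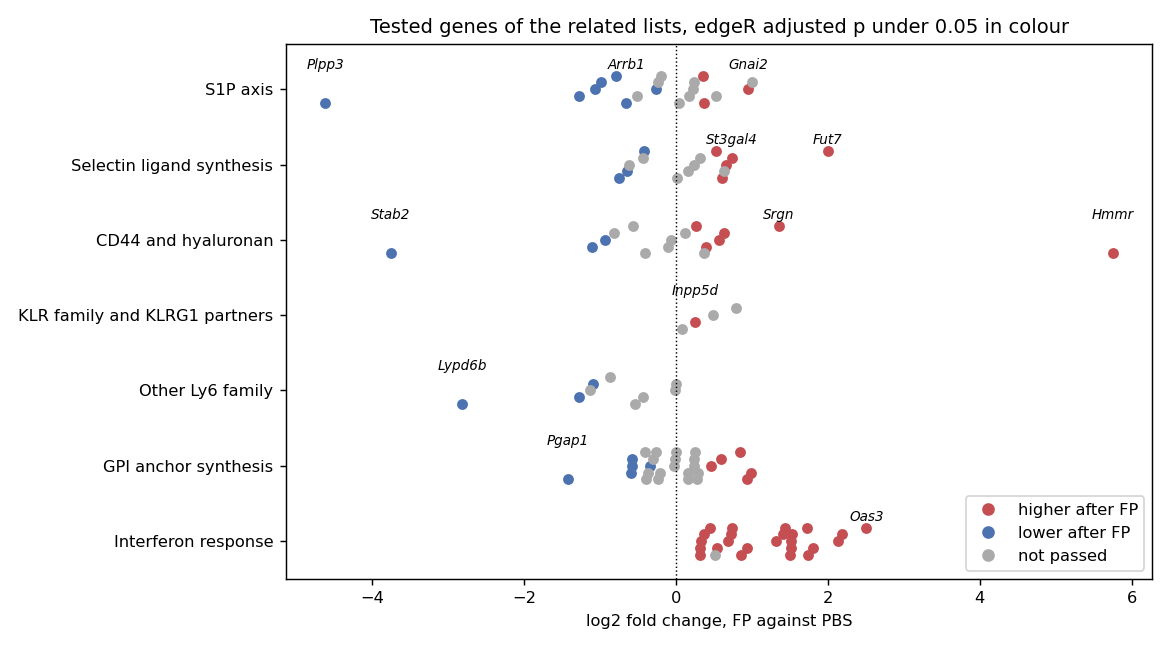
Log2 fold changes (horizontal axis, dotted line at 0) of the tested genes of each related list, 1 point per gene, red where higher and blue where lower after FP at an edgeR adjusted p under 0.05 and grey otherwise; vertical offsets only separate points. All 25 interferon-response genes lie to the right of 0, whereas the S1P, selectin ligand, CD44 and GPI anchor genes lie on both sides.

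Levels were compared between genes as CPM per kb of exon. After PBS the order was Ly6e (198), S1pr1 (115), Selplg (60.1), S1pr4 (46.2), Ly6a (44.9), Cd44 (29.4), Ly6c1 (20.6), Klrg1 (17.2) and Ly6c2 (0.327 CPM per kb). S1pr4 and Ly6a overlapped, as did Ly6c1 and Klrg1. After FP Ly6a moved up to the second place at 216 ± 45.0 CPM per kb (SD, n = 4), overlapping Ly6e at 289.5 ± 37.7 (SD, n = 4). Next came Selplg (113), S1pr1 (111.5), S1pr4 (69.3), Klrg1 (48.8), Cd44 (20.4), Ly6c1 (20.4) and Ly6c2 (1.76 CPM per kb). Selplg and S1pr1, S1pr4 and Klrg1, and Cd44 and Ly6c1 overlapped. Ly6c2 remained the lowest in both groups, and its exon length of 2740 bases includes a transcript with a retained intron. For every gene the length joins the exons of all annotated transcripts, 16 for Ly6e, so the order of the genes is approximate.

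For each gene the 1 other gene with the most similar pattern was found among 9652 genes, by the mean absolute difference of centred log2 CPM over the 7 libraries. For Ly6c2 it was Gbp2b (0.12), for Ly6a Zfp367 (0.05) and for Klrg1 S100a11 (0.19). For Ly6e it was Sf3a2 (0.03), for Selplg Surf4 (0.02) and for S1pr4 Aldh9a1 (0.02). For Cd44 it was Elmod3 (0.04), for S1pr1 Rps6ka3 (0.03) and for Ly6c1 Rgs10 (0.06). The difference for Klrg1 was the widest of the 9, and that for Ly6c2 was the next widest. These are descriptions over libraries that share their groups and depth.

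The order of the libraries within a group was often shared between the 9 genes. PBS replicate 1 was the highest PBS library for 8 of the 9 genes, and PBS replicate 3 the lowest for 7. FP replicate 4 was the lowest FP library for 6 and FP replicate 2 the highest for 5.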

How the data were processed

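RNA was measured in 7 libraries of sorted splenic Tregs (4 FP, 3 PBS). The authors deposited raw gene counts; reads were aligned to GRCm38 with STAR (2.5.0 in the series' design text, 2.5.0b per the submitters' processing notes) and counted on GENCODE M13 genes with featureCounts 1.5.0, per the labels. The strand setting and the treatment of multi-mapping reads are not given in the sources used here. Totals were 9956509 to 13429878 counts, and Ly6c2 had the fewest counts of the 9 genes. Klrg1 had the widest standard error of the 9 (0.33).

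Counts were filtered with filterByExpr, scaled with TMM and tested with robust edgeR 4.0.16 quasi-likelihood fits in R 4.3.3 (limma 3.58.1, DESeq2 1.42.0 as alternatives), with Benjamini-Hochberg adjustment over 15954 genes. Tested on simulated data with the real means, the fit called 10 of 53 genes changed 1.5-fold and 26 of 48 at 2-fold. At 4-fold it called 37 of 42 and at 8-fold 53 of 57. The simulation gave 131 calls in all, 5 of them false, against 6308 calls in the real comparison. Far fewer genes were changed there than were called in the real comparison, so these rates do not carry over to it. Alternatives were other scalings, tests and filters, each library left out, and a replicate block. Named genes were the 9 members, up to 4 genes with the smallest p among the called genes of each list, Cd69, Klf2 and the most similar gene to each member with at least 5 CPM. The members and lists were chosen with earlier results of these data known. Coordinates and coding sequences are from GENCODE on GRCm38, promoters from RefSeq (GRCm38.p6).

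Summed marker levels in the FP and PBS libraries, beside those in the report, were 5561 to 6586 and 3530 to 3990 CPM for Tregs. For B cells they were 11.3 to 22.4 and 24.4 to 46.1 CPM, and for neutrophils 1.08 to 2.84 and 2.92 to 10.7 CPM. The plasma cell list summed to 149 to 225 and 86.4 to 95.3 CPM, nearly all of it Prdm1 and Xbp1, which rose. Its other 4 markers, Jchain, Sdc1, Mzb1 and Tnfrsf17, were too low to be tested, at most 0.645 CPM in any library. Sums were 7.84 to 12.9 and 8.93 to 9.80 CPM for CD8 T cells, and 11.7 to 15.7 and 24.4 to 35.6 CPM for dendritic cells. Endothelium had 176 to 200.4 and 196 to 213 CPM, and erythroid cells 9.34 to 23.7 and 11.5 to 27.1 CPM.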

Additional observations from a re-analysis of the deposited data

Results flagged for a closer look

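The summed level of the 6 NK cell markers in FP replicate 2, 5.77 CPM, stood apart from the other FP libraries (2.84 to 3.28 CPM): its gap to the nearest was 0.849 of the group's range, above Dixon's 95% critical value for 4 samples. Of 28 groups of FP values checked this was the 1 that passed, and chance passes about 1 in 20. Tyrobp, which myeloid cells also express, gave 4.44 of the 5.77 CPM, and Klrb1c was not highest there (0.178 CPM). FP replicate 2 also had the highest summed level of monocyte and macrophage markers (214 CPM) and the highest Klrg1 level of its group. The part of other cells in these values was not tested.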

How the results depend on the processing

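Over 16 alternatives, 137 of 144 fold changes of the 9 genes kept their direction and their side of the threshold. Leaving out FP replicate 4 and using replicates 1 to 3 with no block are the same fit. These numbers therefore count that fit more than once. Ly6e alone lost its call, with library size alone. Those that turned sign had not passed. Ly6c1 was 0.000898 with no filter, 0.13 without PBS replicate 1 and 0.0909 with the replicate block. It was 0.0849 without FP replicate 4, which is also the fit for replicates 1 to 3 with no block. S1pr1 was 0.0747 without PBS replicate 1. Leaving out 1 library gave -0.104 to 0.135 for Ly6c1 and -0.111 to 0.0747 for S1pr1. The number of the 9 genes that rose was 6 in all but library size alone (5). Over all genes, leaving out 1 library gave 4088 to 7277 calls, with 4088 without PBS replicate 3. Same-numbered libraries correlated at 0.163, 0.0667 and 0.275, and the other pairs at -0.286 to 0.174. The highest of those other pairs was FP replicate 2 with PBS replicate 1. So few correlations cannot decide whether libraries with the same number were paired. The replicate block gave 7839 calls, against 7277 for the same libraries with no block. The Ly6c2 and S1pr4 shares differed by 9.59 to 10.0 and 7.94 to 9.75 percentage points as each library was left out, with exact permutation p = 0.1 or 0.0667, the smallest those sizes allow.

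GPI anchor genes that rose numbered 2 with either upper-quartile factors or library size alone, and those that fell 9 and 10; with library size alone 15 interferon genes, 3 CD44 genes and 3 selectin ligand genes rose. The cause of these changes was not tested. In the list of killer lectin-like receptors and KLRG1 partners 1 gene fell without PBS replicate 1 and 1 without PBS replicate 2.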
